A study of Mus musculus with 48 samples.

Results

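Prl, Gh, Pomc and Cga are 4 genes of pituitary hormones among the 48795 genes of a mouse cerebral cortex RNA-seq table, taken by gene name. They were chosen by their read counts in these same libraries, which were known beforehand. Their levels and their joint occurrence are therefore given as a description, and the p-values further down are not independent evidence. The table holds 48 libraries, labelled as 1 per mouse, from mice on a C57BL/6 background aged 6 months. The 6 genotypes were wild type (WT, 3 females and 4 males), Q140, in which a heterozygous knock-in carries an expanded CAG repeat in the huntingtin gene Htt (4 and 4), Msh3+/- (5 and 4), Q140 x Msh3+/- (4 and 4), Msh3-/- (4 and 4) and Q140 x Msh3-/- (4 and 4). Msh3 is a mismatch repair gene whose product acts on repeat instability.

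Prolactin is made by lactotroph cells and growth hormone by somatotroph cells of the anterior pituitary, and both lineages depend on the transcription factor POU1F1 (PIT-1). Pomc encodes a precursor that is cleaved into ACTH, melanocortins and beta-endorphin, in corticotroph and melanotroph cells and in some hypothalamic neurons. Cga encodes the alpha subunit that luteinizing hormone, follicle-stimulating hormone and thyrotropin share. The cortex is not a main source of any of these hormones.

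Library totals ran from 35946572 to 64479357 counts, with a mean of 46520957 counts, so that 3 counts, the limit that a count of 0 allows, stood between 0.0465 and 0.0835 CPM, the count scaled to the library's total. Msh3 RNA averaged 24.2 ± 1.06 CPM (SD, n = 7) in WT and 109 ± 7.91 CPM (SD, n = 8) in the mice labelled Msh3-/-. That goes against reading the label as a loss of Msh3 RNA, and the genotype names below are the labels' names. Htt lay between 225 and 259 CPM in every group, on a count that does not separate its alleles. Xist and the Y-linked gene Ddx3y went against the sex label in 0 of 48 libraries. The cortical neuron genes Slc17a7, Gad1 and Tbr1, which encode a vesicular glutamate transporter, a GABA-synthesizing enzyme and a cortical transcription factor, had medians of 1270, 361 and 198 CPM, as the tissue label states.

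In the annotation (GENCODE M21, GRCm38) Prl, ENSMUSG00000021342, lies at chr13:27057570-27065205 on the plus strand, and its first bases overlap the antisense gene model Gm47888. Gh, ENSMUSG00000020713, lies at chr11:106300271-106301865 on the minus strand, with no overlapping gene. Pomc, ENSMUSG00000020660, lies at chr12:3954951-3960642 on the plus strand, also with no overlapping gene. Cga, ENSMUSG00000028298, lies at chr4:34893779-34907370 on the plus strand, and its end overlaps the antisense gene Platr9, which had 0 counts in every library. The 25 prolactin-family genes whose symbols are Prl followed by a digit, which the placenta expresses, had 3 counts in all, at most 1 in any library, so few counted reads went to these relatives.

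The bases before the start of Prl and Pomc are shown here with the motif of POU1F1, on which the Prl and Gh lineages depend. No window was available for Gh, and whether the motif bears on the joint occurrence of Prl and Gh was not tested. The sequences are RefSeq's, build GRCm38.p6, 250 bases before the annotated start, 5′ to 3′ on the plus strand. The table matched 3 of the 4 genes, Prl, Pomc and Cga. Capitals mark matches to TATNCAT, the core of the POU1F1 motif, on either strand. The first window is chr13:27057320-27057569 and the second is chr12:3954695-3954944.
Prl: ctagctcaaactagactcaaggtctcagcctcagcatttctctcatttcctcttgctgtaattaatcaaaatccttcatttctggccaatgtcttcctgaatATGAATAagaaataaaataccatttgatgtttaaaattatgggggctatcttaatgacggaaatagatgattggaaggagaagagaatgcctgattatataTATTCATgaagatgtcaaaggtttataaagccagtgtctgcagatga
Pomc: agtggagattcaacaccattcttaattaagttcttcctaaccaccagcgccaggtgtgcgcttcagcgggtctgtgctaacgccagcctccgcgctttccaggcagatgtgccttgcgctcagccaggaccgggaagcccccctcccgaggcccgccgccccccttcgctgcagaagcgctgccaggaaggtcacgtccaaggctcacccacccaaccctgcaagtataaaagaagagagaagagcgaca
The Prl window held 2 matches. One, on the minus strand, reached from 148 to 142 bases before the start, and the other, on the plus strand, from 47 to 41 bases before it. The Pomc and Cga windows held 0 matches. Of 32851 windows of this length in the table, 2603 (7.92%) held at least 1 match and 415 (1.26%) held at least 2. A match describes letters only.

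Prl was the member with the widest spread. It was at 0 counts in 32 of 48 libraries, at 10 or more in 8, and at 276 counts in one. A library is said here to carry a hormone at 10 or more counts. The library of Q140 female 2 held 276 Prl counts (6.04 CPM), which is 49.6% of the 557 Prl counts of the series. Msh3+/- female 1 followed with 89 counts (1.87 CPM), Q140 female 1 with 52 (1.19 CPM) and Msh3+/- female 3 with 44 (0.811 CPM). The other 4 carriers were Msh3-/- female 2 with 24 counts, Msh3-/- female 1 with 17, Msh3-/- female 3 with 14 and Q140 x Msh3-/- female 3 with 10. Just under the threshold stood Msh3-/- female 4 with 9, Q140 x Msh3+/- female 2 with 8 and WT female 2 with 6. All 8 carriers were female, from 4 of the 6 genotypes.

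Gh had 345 counts in all and was carried by 12 libraries, 9 of them female. Its highest library was again Q140 female 2, with 111 counts (2.43 CPM, 32.2% of all Gh counts). Msh3+/- female 1 had 46 counts (0.964 CPM), Q140 female 1 had 32 (0.733 CPM) and Msh3+/- female 3 had 19 (0.35 CPM). By counts, these 4 libraries held the first 4 places for both genes. Q140 x Msh3+/- male 2, a smaller library, followed with 16 counts, which at 0.416 CPM placed it above Msh3+/- female 3 by level. Msh3-/- female 1 also had 16, then Msh3+/- male 3, Msh3-/- female 2 and Q140 x Msh3+/- female 2 with 15 each. WT female 1 had 12 counts, and Q140 x Msh3-/- female 3 and WT male 3 had 10 each. Unlike Prl, Gh was thus carried by 3 male libraries and reached 10 counts in every genotype.

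**Figure D1:**
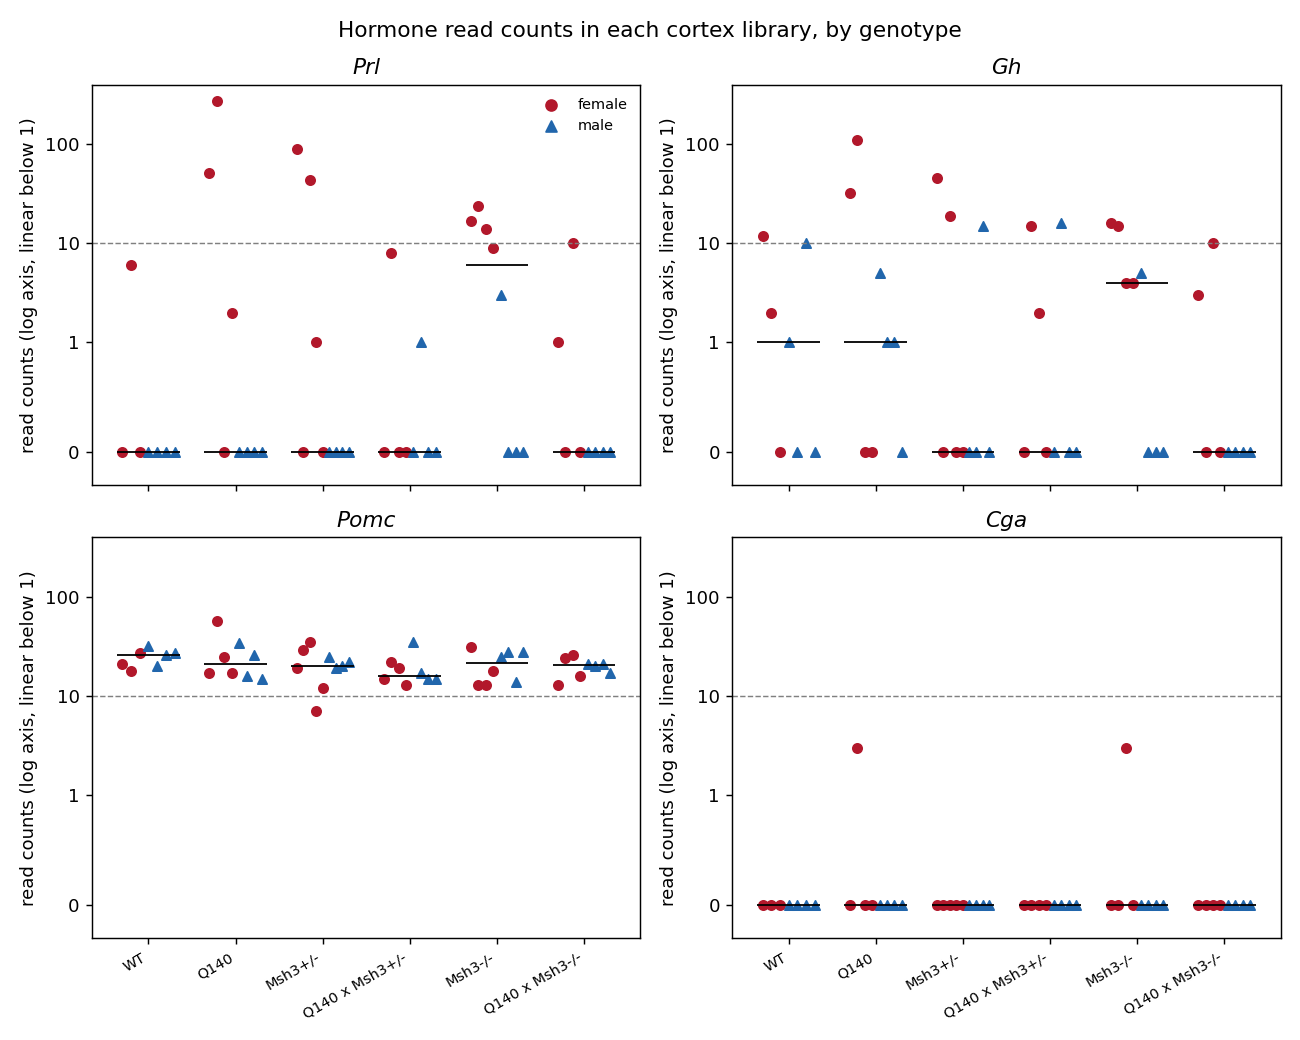
Read counts of Prl, Gh, Pomc and Cga in each of the 48 libraries by genotype, on a log axis that is linear below 1; circles are females, triangles males, black lines group medians, and the dashed line is 10 counts. Prl reached 10 counts in 8 female libraries and in 0 male ones, Pomc lay between 7 and 57 in all libraries, and Cga was above 0 in 2.

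Pomc followed another pattern. It had reads in 48 of 48 libraries, from 7 to 57 counts with a median of 20, and 47 libraries carried it. In CPM it ran from 0.181 through a median of 0.444 to 1.25. The 57 counts were again in Q140 female 2, and the next highest libraries, Msh3+/- female 3 and Q140 x Msh3+/- male 1, had 35 each. Q140 female 2 held 5.45% of the Pomc counts, against 49.6% of the Prl counts.

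Cga was nearly absent, with 6 counts in the series. Of these, 3 were in Q140 female 2 (0.0656 CPM, exact 95% Poisson interval of 0.619 to 8.77 counts) and 3 in Msh3-/- female 3 (0.063 CPM, with the same interval). The other 46 libraries were at 0. Intervals here cover counting error only, since PCR copies of reads were not told apart by molecular identifiers.

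Levels of different genes can be set side by side only per length, for which the deposited FPKM, which are scaled by gene length and library size, serve. In Q140 female 2 Prl stood at 6.71 FPKM, Gh at 2.8, Pomc at 1.23 and Cga at 0.0684. In Msh3+/- female 1 the order was Prl at 2.04 FPKM, Gh at 1.1 and Pomc at 0.388, so the order of these hormones was the same in both. Q140 female 1 had this order too, with 1.34, 0.854 and 0.389 FPKM. In Msh3+/- female 3 Pomc, at 0.642 FPKM, stood between Prl at 0.908 and Gh at 0.407. In the median library Pomc had 0.446 FPKM, while Prl, Gh and Cga were at 0.

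Prl and Gh occurred largely in the same libraries. Of the 8 libraries that carried Prl, 7 also carried Gh, which is 87.5% of the Prl carriers and 58.3% of the 12 Gh carriers. The exception among the Prl carriers was Msh3-/- female 3, with 14 Prl and 4 Gh counts. The 5 libraries that carried Gh but not Prl were 3 males (Q140 x Msh3+/- male 2 with 1 Prl count, Msh3+/- male 3 and WT male 3 with 0) and 2 females (Q140 x Msh3+/- female 2 with 8 and WT female 1 with 0). Neither gene had a single count in 24 libraries, 8 female and 16 male. Of the 2 libraries with Cga, both carried Prl and 1 carried Gh. Joint occurrence with Pomc cannot be read from the threshold, since 47 libraries passed it.

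**Figure D2:**
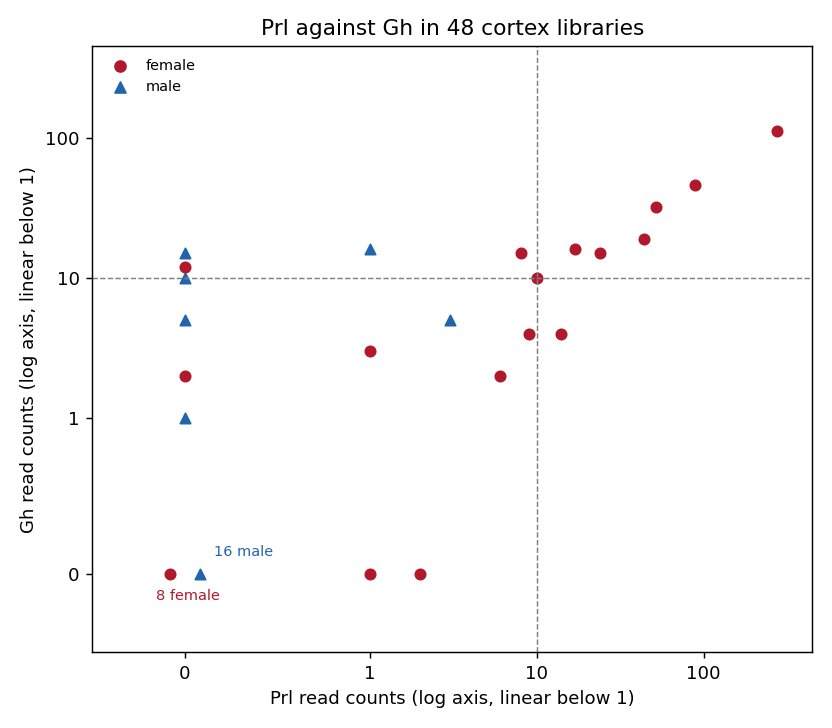
Prl counts against Gh counts, 1 point per library (some points coincide), both axes logarithmic and linear below 1, dashed lines at 10 counts. The 4 libraries with the most Prl counts also had the most Gh counts, 24 libraries lay at 0 for both, and 3 male libraries had 10 or more Gh counts with at most 1 Prl count.

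The proportion of Prl to Gh was read in libraries with enough of both. Prl made up 71.3% of the 387 Prl and Gh counts in Q140 female 2 (exact Clopper-Pearson 95% interval 66.5 to 75.8%), 65.9% of 135 in Msh3+/- female 1 (57.3 to 73.9%), 61.9% of 84 in Q140 female 1 (50.7 to 72.3%) and 69.8% of 63 in Msh3+/- female 3 (57.0 to 80.8%). These 4 intervals overlapped one another. In libraries with less of both the shares scattered to either side. Msh3-/- female 3 had 77.8% of 18, Msh3-/- female 4 had 69.2% of 13 and Msh3-/- female 2 had 61.5% of 39, while Msh3-/- female 1 had 51.5% of 33 (33.5 to 69.2%) and Q140 x Msh3+/- female 2 had 34.8% of 23 (16.4 to 57.3%). The last interval ended below that of Q140 female 2. The lowest share above 0 was 5.88% of 17 in Q140 x Msh3+/- male 2 (0.149 to 28.7%). The share was 0% in Msh3+/- male 3 (of 15, 0 to 21.8%), in WT female 1 (of 12, 0 to 26.5%) and in WT male 3 (of 10, 0 to 30.8%). Each of these low intervals, that of WT female 1 included, ended below those of the 4 libraries with the most Prl and overlapped that of Q140 x Msh3+/- female 2.

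**Figure D3:**
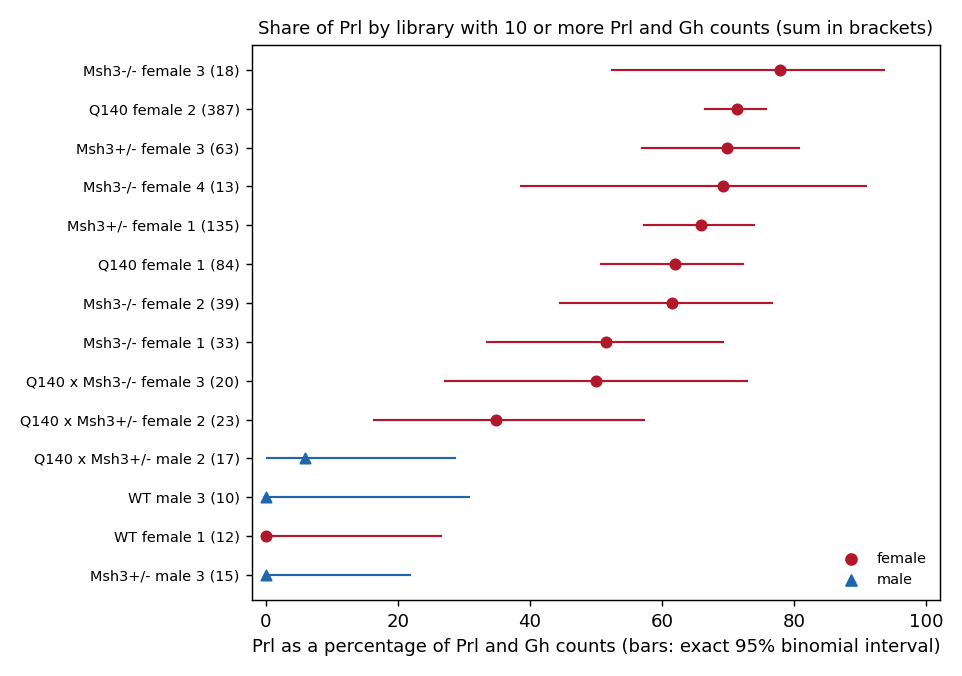
Prl as a percentage of Prl and Gh counts in the 14 libraries with 10 or more of these counts (sum in brackets); points are shares and bars exact 95% binomial intervals. Shares lay between 34.8% and 77.8% in 10 female libraries, and at 5.88% or 0% in 3 males and WT female 1.

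The sexes differed in Prl. Among 24 females Prl ran from 0 through a median of 0.0339 to 6.04 CPM (mean 0.493 ± 1.26, SD), and 14 had at least 1 count. Among 24 males it ran from 0 through a median of 0 to 0.0642 CPM (mean 0.00376 ± 0.0139, SD), and 2 had any count, Msh3-/- male 1 with 3 and Q140 x Msh3+/- male 2 with 1. The ranges overlap, since 10 females were also at 0.

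In a fit of all 20010 genes that passed the low-count filter, with genotype and sex as terms, Prl was lower in males by a log2 difference of -6.13 ± 0.87 (SE; edgeR's quasi-likelihood test, Benjamini-Hochberg adjusted p = 6.69e-06). The size is a fitted value that rests on the 4 counts of the males. Prl, Gh and Pomc passed the filter and Cga did not. Prl passed it with 7 libraries, the least number allowed, all of them female, so it could enter the test only through the sex in which it was high. Over these genes 5.56% were called between the sexes and 2.83% were called lower in males. In 13 fits that left out 1 library with 10 or more Prl or Gh counts, the genes were those kept with all 48 libraries, since Prl fails the filter when it is applied anew without Q140 female 2. On that gene set the Prl difference ran from -6.39 to -5.21, with adjusted p at most 2.63e-05. A permutation test of 1 log2 CPM value per mouse gave a difference of -2.15 (p = 2e-05, two-sided, the smallest its 100000 resamples can give, 0.0004 adjusted over 20 such tests).

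Gh was lower in males by -2.16 ± 0.65 (edgeR's quasi-likelihood test, adjusted p = 0.0387), from 0.26 ± 0.523 CPM in females to 0.0493 ± 0.11 in males (SD, n = 24 each). Reads were found in 14 females and 8 males. Gh passed the filter with 10 libraries. At 0.2 CPM or more, near the filter's cut, 8 of its 10 libraries were female. Gh thus also entered the test through the sex in which it was high, and males alone would not have passed it. This call was lost in 7 of 13 fits that left out 1 library. Adjusted p was 0.106 without Q140 female 2, 0.075 without Msh3+/- female 1, 0.0588 without WT female 1, 0.0556 without Q140 x Msh3+/- female 2, 0.0553 without Msh3-/- female 2, 0.0528 without Q140 x Msh3-/- female 3 and 0.0521 without Msh3-/- female 1. The permutation test over mice gave p = 0.0158 (0.105 adjusted over the 20 tests). Pomc averaged 0.448 ± 0.206 CPM in females and 0.48 ± 0.101 in males and was not called (0.10 ± 0.13, edgeR adjusted p = 0.712). Of the marker lists for other tissue, the 4 haemoglobin genes also had a higher median in one sex, 2.53 CPM in females (0.111 to 11.6) and 7.24 in males (0.352 to 16.6), with 0 of the 4 called, and their part in the result was not tested. The 6 choroid plexus genes tested were all lower in males by their estimates (median -0.45 on the log2 scale), with 0 called. The 6 cortical neuron genes summed to 1910 to 2250 CPM in females and 2010 to 2310 in males, and 1 of them, Slc17a7, was called higher in males (0.08 ± 0.02, edgeR adjusted p = 0.0269). Drd1, a dopamine receptor gene of striatal projection neurons, was called higher in males too (0.23 ± 0.07, adjusted p = 0.0297). In bulk tissue more cells of a type and more RNA per cell cannot be told apart.

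Mice did not enter these groups independently of another label. The count columns are named by a stem and a number, and the labels do not say what a stem stands for. The 48 libraries fell into 27 stems, each of a single sex (12 female, 15 male), and 13 stems spanned genotypes. Stem Mh3Q34, the 2 libraries Q140 female 1 and 2, held 58.9% of the Prl counts and 41.4% of the Gh counts. Stem Mh3Q40, with Msh3+/- female 1 and Msh3-/- females 1 and 2, held 23.3% and 22.3%, and all 3 of its libraries carried both genes. Stem Mh3Q48, with 4 females of 3 genotypes, held 12.2% and 8.7%. These 3 stems, 9 mice, thus held 94.4% of all Prl counts and 72.5% of all Gh counts, and 4 stems held every Prl carrier. With 1 mean per stem the permutation test between the sexes gave p = 0.00452 for Prl (0.0452 adjusted over the 20 tests; difference -1.85, 15 male and 12 female stems) and p = 0.174 for Gh (0.54 adjusted). Whether a stem or a genotype goes with Prl cannot be told apart for Q140, since both Q140 carriers share 1 stem.

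**Figure D4:**
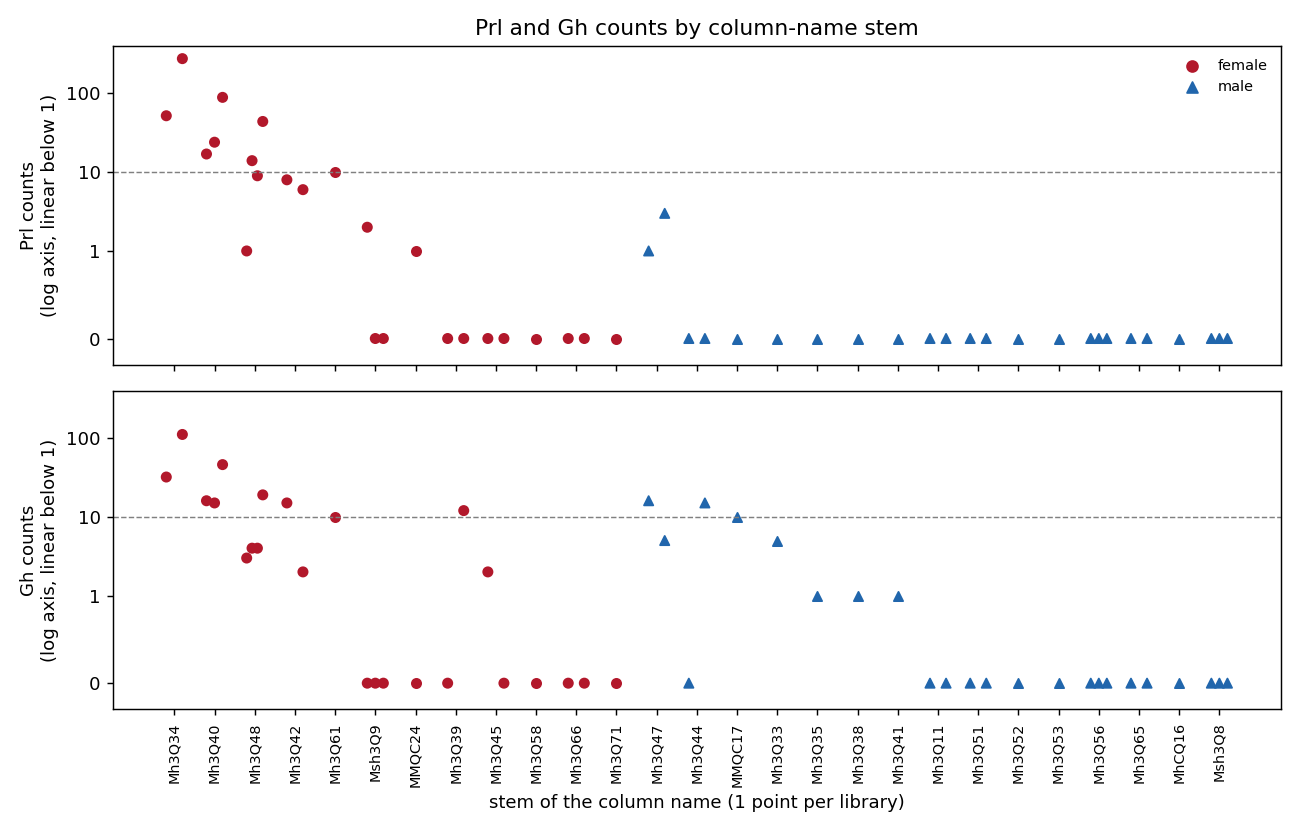
Prl (top) and Gh (bottom) counts by column-name stem, 1 point per library, on log axes that are linear below 1; circles are females, triangles males, and the dashed line is 10 counts. The points above the line for Prl lie in 4 female stems, while Gh passes it in 9 stems.

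The labelled well address also went with the 2 hormones. Of the 48 wells (rows A to H, columns 1 to 6), rows E to H held 24 libraries, 14 of them female, with 96.2% of the Prl counts and 87.0% of the Gh counts. Within rows E to H Prl averaged 0.819 ± 1.6 CPM in 14 females and 0.0026 ± 0.00823 in 10 males (SD). Within rows A to D it averaged 0.037 ± 0.0697 in 10 females and 0.00458 ± 0.0171 in 14 males. Gh averaged 0.408 ± 0.648 and 0.0713 ± 0.132 CPM in females and males of rows E to H, and 0.0522 ± 0.101 and 0.0336 ± 0.0934 in those of rows A to D. The means were higher in females in either set of rows. In rows A to D they rested on few reads, 18 Prl counts in females and 3 in males, and 24 and 21 Gh counts. With plate row as a term, added after seeing the data, Prl stayed lower in males (-7.00 ± 1.22, edgeR adjusted p = 0.00112), while Gh was no longer called (-2.26 ± 0.88, adjusted p = 0.196). Prl entered this fit too only through females, and the fit took mice of the same stem as independent. Its p-value for Prl is therefore not a fair test of the sexes apart from the wells. Libraries in the 5 wells next to that of Q140 female 2 had from 0 to 44 Prl counts, the 44 in Msh3+/- female 3.

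**Figure D5:**
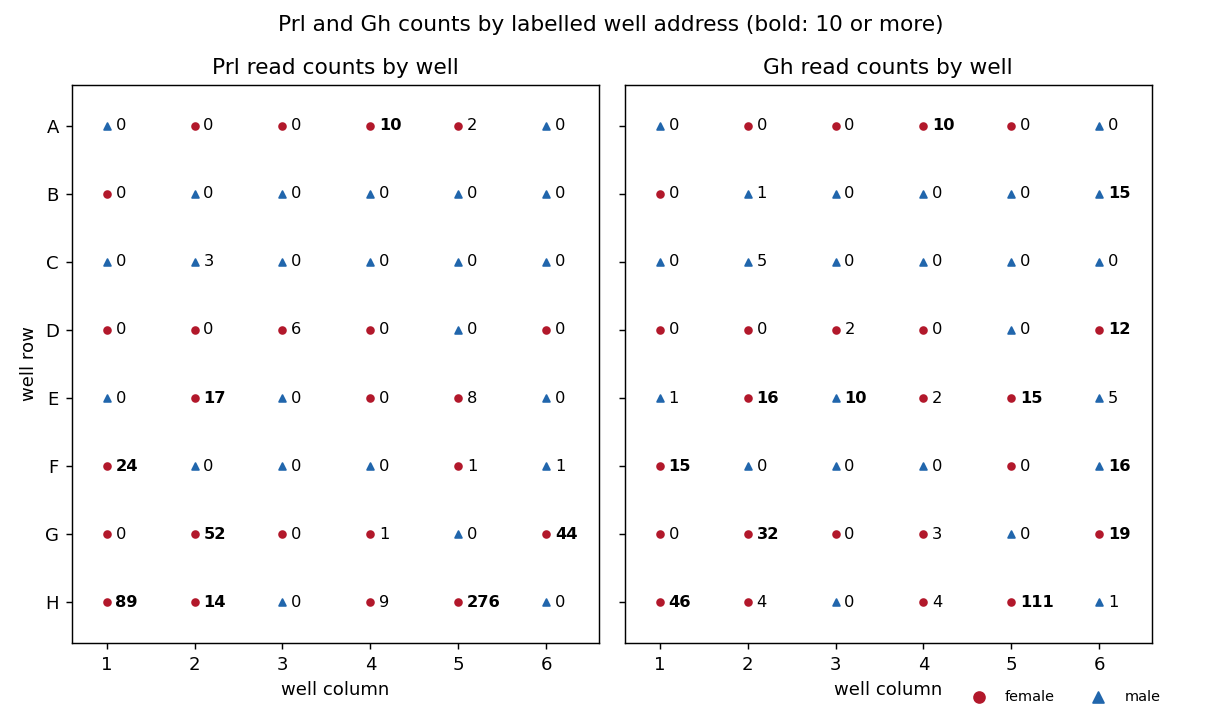
Prl (left) and Gh (right) read counts printed at each library's labelled well, rows A to H and columns 1 to 6; circles are females, triangles males, and bold marks 10 or more counts. The bold values lie mostly in rows E to H, 7 of 8 for Prl and 9 of 12 for Gh.

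Genotype comparisons asked whether the hormones moved with the Htt expansion or the Msh3 alleles. Prl carriers numbered 2 of 8 in Q140, 2 of 9 in Msh3+/-, 3 of 8 in Msh3-/-, 1 of 8 in Q140 x Msh3-/- and 0 in WT and in Q140 x Msh3+/-. All carriers were female, and each genotype had 4 females, except Msh3+/- with 5 and WT with 3. The highest Prl library of each genotype was a female. Prl ran from 0 through a median of 0 to 0.138 CPM in WT and from 0 through a median of 0 to 6.04 CPM in Q140. In Msh3-/- it ran from 0 through a median of 0.137 to 0.534 CPM, and in Q140 x Msh3-/- from 0 through 0 to 0.192 CPM. All groups overlapped at 0.

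Across the 6 genotypes at once, Prl was the 1 member of the 3 tested that was called (edgeR's quasi-likelihood test, adjusted p = 0.0127), where 0.105% of all genes were. The 7 libraries with which Prl passed the filter were all of Q140, Msh3+/- or Msh3-/-. Prl could thus enter the genotype tests only through genotypes in which it was high, so its call is not a fair comparison with that share. That call rested on Q140 female 2: without it the adjusted p was 0.473, while each of the other 12 libraries could be left out with the call kept. It was also lost with plate row (adjusted p = 0.626) or plate column (0.49) as a term, with DESeq2 (0.868), and in a limma fit with the stem as a random block (0.708). Gh (adjusted p = 0.658) and Pomc (0.826) were not called.

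In the pairwise comparisons 0 of the 3 tested members were called, against a background of 0.01% of genes for Q140 minus WT, 0.035% for Msh3-/- minus WT and 0.045% for Q140 x Msh3-/- minus Q140. An unadjusted p under 0.05 was reached by 5.48% of all genes in Q140 minus WT, by 5.73% in Msh3-/- minus WT and by 9.07% in Q140 x Msh3-/- minus Q140. Of the 3 members, Prl reached it in the first (5.05 ± 1.26, adjusted p = 0.385), none did in the second, and Prl and Gh did in Q140 x Msh3-/- minus Q140 (-4.70 ± 1.08, adjusted p = 0.115, and -3.28 ± 1.12, adjusted p = 0.376). The limma fits called none of the members in these 3 comparisons. DESeq2 called none in the first 2 and gave no adjusted p for them in the third. The first and the third share the Q140 mice, so their values are not independent. Without the 2 libraries of stem Mh3Q34 and with no low-count filter, the Prl difference was -0.90 for Q140 minus WT and 1.25 for Q140 x Msh3-/- minus Q140, both opposite in sign to the values above. In the mice labelled Msh3-/-, Prl differed from WT by 2.85 ± 1.42 (adjusted p = 0.867), and by -1.11 with plate row as a term. Pomc differed by 0.17 ± 0.23, -0.15 ± 0.23 and -0.35 ± 0.22 in the 3 comparisons (adjusted p from 0.643 to 0.966).

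Other transcripts of the pituitary were then read in the same libraries. The beta subunits that pair with Cga were at or near 0: Lhb (luteinizing hormone) had 57 counts in 27 libraries and at most 5 in one, Tshb (thyrotropin) 16 counts in 9 libraries and at most 3, and Fshb (follicle-stimulating hormone) 1 count in all. Q140 female 2 had 5 Lhb, 2 Tshb and 0 Fshb counts. Summed with Cga these gave 10 counts in that library, the most in any library, beside its 276 of Prl. The 3 beta subunits alone summed to 0.153 CPM there, the highest sum of any library, where males reached at most 0.0855 CPM. These sums rest on a few counts.

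Of 12 pituitary transcription factors, 2 reached 10 counts in any library. Pou1f1, on which Prl and Gh cells depend, had 30 counts in 17 libraries, at most 6 (in WT female 2), and 0 in Q140 female 2. Pitx1, a factor of the early pituitary, had 0 counts in the series. The factors at 10 or more were Neurod4, a neuronal and pituitary factor found in every library (0.301 to 1.93 CPM), and Nr5a1, the gonadotroph factor (at most 0.233 CPM). Summed over the 12 factors, females had 0.726 to 2.21 CPM and males 0.356 to 1.7, with 1.53 in Q140 female 2. In the library with the most Prl the factors thus lay within the range of the other females.

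Among 7 receptors for hypothalamic hormones, Ghrhr, the receptor of somatotrophs for growth hormone-releasing hormone, had 13 counts in all, and Gnrhr had 1. Q140 female 2 had 1 Ghrhr count. The 3 that reached 10 counts were in every library: Crhr1, which binds corticotropin-releasing hormone (25.4 to 36.2 CPM), the dopamine receptor gene Drd2 (0.317 to 3.1 CPM) and Trhr, which binds thyrotropin-releasing hormone (0.572 to 2.49 CPM). None of the 3 was called in any of the 5 comparisons.

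The enzymes and granule proteins that process and store peptide hormones were abundant in all libraries, as neurons use them too. Cpe, a carboxypeptidase, ran from 1290 to 1490 CPM, Chgb, a granin, from 483 to 636, and Pcsk2, a prohormone convertase, from 501 to 630. Their 10 genes summed to 3560 to 3880 CPM in females and 3570 to 3880 in males, with 3670 in Q140 female 2. Between the sexes 1 of the 10 was called: Chga, the granin chromogranin A, was lower in males by -0.17 ± 0.03 (edgeR adjusted p = 3.17e-04). The list's median sex difference was 0.0139 on the log2 scale, beside 0.0019 over all genes tested.

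Receptors of the hormones and genes that respond to them were 16, of which 13 reached 10 counts in a library and 11 were tested. The median level was 31.0 CPM for Oprd1, an opioid receptor gene, 22.0 for Socs2, a growth hormone-responsive inhibitor of cytokine signalling, and 0.78 for Prlr, the prolactin receptor. Prlr was highest in Msh3-/- female 4 (19.2 CPM) and stood at 0.525 CPM in Q140 female 2. Between the sexes Ghr, the growth hormone receptor, was higher in males by 0.13 ± 0.04 (edgeR adjusted p = 0.0366), and the other 10 were not called. The list's median sex difference was 0.0781 on the log2 scale.

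Choroid plexus RNA was looked at because its epithelium expresses Prlr and lies in the ventricles beneath the cortex. Ttr, its transthyretin gene, stood at 1090 CPM in Msh3-/- female 4 and 106 CPM in Msh3-/- female 3, which held 9 and 14 Prl counts. In Q140 female 2 Ttr stood at 4.75 CPM. All 9 choroid plexus genes summed to 8.53 CPM there, within the range of 3.38 to 1230 over all libraries. Without the 3 libraries with the most Ttr, Prl stayed lower in males (-6.22, edgeR adjusted p = 1.83e-05) and Gh too (-2.49, adjusted p = 0.0262). The third of them, WT male 3 (Ttr at 352 CPM), held 0 Prl and 10 Gh counts. Leaving the 3 out thus removed few Prl counts, but it removed a male Gh carrier, of which the series had 3. Leaving out WT male 3 alone gave -2.40 for Gh (edgeR adjusted p = 0.0273). Prl again entered this fit only through females, and a part of choroid plexus RNA in the result was not tested.

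By Pearson correlation of log2 CPM over the 48 libraries, among 16189 named genes with at least 50 counts, Gh was the gene most like Prl (r = 0.802), and Prl the one most like Gh. The value was 0.755 without Q140 female 2 and Gh stayed first. Many of these points are libraries at 0 for both genes, and libraries share stems, so r is a description. After Gh came Chga (0.54), DHRSX (0.53), Rarres2 (0.527) and Anxa5 (0.526), which ranked 7, 27, 13 and 45 without Q140 female 2. The correlations were not adjusted for sex. Chga, like Prl, was lower in males, so a shared sex difference and a shared level within a sex cannot be told apart. After Prl, the genes most like Gh were Rnf223 (0.564), Fer1l4 (0.497), Slc39a7 (0.485) and Hdac4 (0.481). For Pomc they were Hes1 (0.555), Emx2 (0.54), Snrpd2 (0.515), Magoh (0.508) and Ier5l (0.497), none of them a hormone gene. Pomc and Prl had r = 0.169, and -0.103 without Q140 female 2. For Cga, with reads in 2 libraries, the highest were Prl (0.489), Ube2r2 (0.426), Fam222a (0.425), Zfp30 (0.424) and Cox7a1 (0.422), and r with Prl was 0.229 without Q140 female 2.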

How the data were processed

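Counts per gene and FPKM were deposited by the authors for 48 cortex libraries. The labels name a TruSeq stranded protocol. STAR 2.7.5c, SAMtools 1.10, HTSeq 0.12.3 and the builds GRCm38 and mm10 are named per the submitters' processing notes. Annotation release, strand setting and filters are not given in the sources used here. The deposited FPKM equal the counts times 1 factor per gene and 1 per library. Raw counts were tested with edgeR 4.0.16 (TMM, filterByExpr, genotype plus sex, quasi-likelihood, adjusted over 20010 genes). The filter asked for about 0.213 CPM in at least 7 mice. CPM use TMM-scaled totals and log2 CPM a prior count of 1. Alternatives used DESeq2 1.42.0 and limma 3.58.1, the latter on log2(FPKM + 0.1) and log2(FPKM + 1). A fit without the library with the highest summed hormone CPM was planned, and that library, Q140 female 2, was picked by its counts. Fits with plate row or the stem, other fits without named libraries or stems, and permutation tests were added after seeing the data. The fit was tested on simulated data. No 2 of 169 pairs within groups were identical. The members and lists were chosen with earlier results of these data known. Named genes were the members, the 3 genes of each list with the highest CPM in any library, defining markers at or near 0, and the 5 most correlated with each member; some list genes are not reported here.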

Additional observations from a re-analysis of the deposited data

Results flagged for a closer look

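In 12 of 20 combinations of member and genotype with any reads, the highest library lay farther from the next than Dixon's 95% criterion allows. Chance marks about 1 in 20 groups, and groups in which most libraries are at 0 pass it easily. A group with reads in only 1 library passes it whatever the count, as for Cga in Q140 and in Msh3-/- and for Prl in WT. In the Q140 group Q140 female 2 stood apart for all 4 hormones: Prl at 6.04 CPM (next 1.19), Gh at 2.43 (next 0.733), Pomc at 1.25 (next 0.664) and Cga at 0.0656 (next 0). In Msh3+/-, female 1 stood apart for Prl at 1.87 CPM (next 0.811) and Gh at 0.964 (next 0.35). In Q140 x Msh3-/-, female 3 stood apart for Prl at 0.192 CPM (next 0.0275) and Gh at 0.192 (next 0.0825). WT female 2 did so for Prl at 0.138 CPM (next 0) and Q140 x Msh3+/- female 2 for Prl at 0.159 CPM (next 0.026). Q140 x Msh3+/- male 1 stood apart for Pomc at 0.702 CPM (next 0.444), with 0 counts of Prl and Gh, and Msh3-/- female 3 for Cga at 0.063 CPM (next 0). All but 1 of these libraries were female.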

How the results depend on the processing

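Carriage depends on the threshold. At 20 or more counts Prl was carried by 5 libraries, Gh by 3, Pomc by 26 and Prl and Gh together by 3, and at 1 or more counts, added after seeing the data, Prl was found in 16, Gh in 22, Cga in 2 and both Prl and Gh in 14. Genes called for any genotype difference numbered 21, and 11 with at least 1 CPM in 7 mice, 12 with a replicate block, 13 with plate row, 45 with DESeq2 and 12 in each limma fit on FPKM. Under the stricter filter Q140 minus WT had 1 gene instead of 2, and under DESeq2 Msh3-/- minus WT had 13 instead of 7. Between the sexes 1112 genes became 265 with plate row, and 714 without Q140 female 2 and with no filter, where removing the filter alone gave 752 and the library alone 1008.

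The Prl genotype call (adjusted p) was lost with a replicate block (0.182), plate column (0.49), plate row (0.626), without Q140 female 2 (0.453) or both libraries of its stem (0.0524) and no filter, with DESeq2 (0.868), with limma on log2(FPKM + 0.1) (0.759) or log2(FPKM + 1) (0.776), and with a stem block (0.708). Of the settings in which Prl was tested, its sex call was lost with limma on log2(FPKM + 1) (-0.38). Prl failed the filter, and so had no test, without Q140 female 2 or its stem and at 1 CPM in 7 mice, where Gh and Pomc also failed in the last. The Gh sex call was lost with plate row (-2.26), without Q140 female 2 (-1.67, and -1.68 with no filter) or its stem (-1.31 and -1.30), with limma on FPKM (-0.79 and -0.21), with a stem block (-1.49) and by permutation over stems (-0.90), while DESeq2 gave -2.40 and no adjusted p. Signs reversed, in values not called, without the stem of Q140 female 2: for Gh -1.34 (-1.29 with no filter) in Q140 minus WT and 0.19 (0.11) in Q140 x Msh3-/- minus Q140, and, with no filter, for Prl -0.90 and 1.25. With plate row Msh3-/- minus WT was -1.11 for Prl and -1.34 for Gh, the latter -0.0448 with DESeq2. Pomc in Q140 minus WT was -0.0115 with plate row, -0.12 and -0.13 without Q140 female 2, and -0.11 without its stem (-0.107 and -0.111). The cause was not tested.

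Leaving out, one at a time, each of 13 libraries with Prl or Gh, on the genes kept with all 48, Prl between the sexes ranged from -6.39 to -5.21, Gh from -2.70 to -1.67, Pomc in Q140 minus WT from -0.12 to 0.22, and the adjusted p of the Prl genotype test from 0.00267 to 0.473. Genes called ranged from 14 to 25 for any genotype, stayed at 2 for Q140 minus WT, and ranged from 7 to 9, from 8 to 10 and from 884 to 1108 for the other comparisons. Mice with the same replicate number and sex did not deviate together (mean r -0.0077 over 115 pairs, 0.0026 for other pairs), so the numbers do not pair them, and apart from the Prl genotype call the replicate block changed no member's call. At this depth a library with 0 counts can hold up to 0.0465 to 0.0835 CPM, so low carriage cannot be told from none.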

Other observations

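Hypothalamic neuropeptide genes were read in the same libraries. Crh (3.14 to 7.51 CPM) and Cartpt (2.33 to 6.03 CPM), both also made by cortical neurons, were in every library, while Avp and Oxt, the hormones that hypothalamic neurons send to the posterior pituitary, had at most 9 and 6 counts in a library. The 11 genes summed to 7.24 to 13.9 CPM in females and 7.22 to 12.5 in males, with 8.73 in Q140 female 2 and the highest sum in Msh3-/- female 1, which carried Prl and Gh. Trh, thyrotropin-releasing hormone, had at most 0.66 CPM.

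Among 5 pineal genes Aanat, the enzyme before the last step of melatonin synthesis, ran from 0.411 to 1.35 CPM and Tph1 reached 0.42 CPM, whereas Crx had 4 counts in all and Gngt1 had 0; they summed to 0.984 CPM in Q140 female 2, in a female range of 0.65 to 1.45. Meningeal genes (Dcn, Slc6a13 and Ogn, with medians of 9.54, 6.63 and 6.33 CPM) summed to 32.2 CPM there, in a female range of 23.3 to 41.8. Haemoglobin genes, led by Hbb-bs (0.0737 to 10.7 CPM), Hba-a1 (up to 3.5) and Hba-a2 (up to 1.26), likewise summed to 0.984 CPM there, in a female range of 0.111 to 11.6. For these 4 lists, hypothalamic genes included, Q140 female 2 lay inside the range of the other females.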
